A study of Rattus norvegicus with 24 samples.

Results

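The interferon response of the kidney was followed in rats with polycystic kidney disease through 9 interferon-stimulated genes, Irf7, Irf1, Isg15, Usp18, Oas1a, Ifit3, Mx1, Mx2 and Rsad2. They were chosen by name as well-known targets of interferon, and each was found by its symbol among the 17334 Entrez genes measured. All 9 passed the filter on low counts, which kept 12778 genes. The RNA came from the left kidneys of 24 animals of the PKD/Mhm (Cy/+) strain, all males of about 8 months, in 4 groups of 6. The Cy allele is a missense change in Anks6, a gene of the primary cilium, and all 24 animals were labelled as carrying 1 copy of it, so no group served as a non-cystic control. Heterozygotes had been picked out by feeling for enlarged kidneys through the abdominal wall, and the genotype was not checked here.

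The Ctrl animals were left untreated. The ipABCB5 and ivABCB5 animals had received human skin-derived stromal cells that carry the surface protein ABCB5, into the abdominal cavity (intraperitoneally, i.p.) or into a vein (intravenously, i.v.), monthly over 6 months. The CoCM animals had received, on the same schedule, a cell-free conditioned medium. It was collected from a co-culture of ABCB5+ cells with human macrophages derived from THP-1 cells, a monocytic leukaemia line, under stimulation with IFN-γ and LPS. The study's text gives the route of the medium as i.p. in one place and as i.v. in another. None of these 4 groups received a vehicle, an unconditioned medium or other human cells, so the agent and the act of injection cannot be told apart here. The controls carried animal numbers from 1 to 24 and the treated animals from 26 to 43, so anything tied to this order and the treatment cannot be told apart either.

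Interferons are secreted proteins that warn cells of viruses and other damage. Type I interferons (IFN-α and IFN-β) act on the receptor of Ifnar1 and Ifnar2, and the kinases JAK1 and TYK2 pass the signal on to the promoters of the target genes, many of which hold the interferon-stimulated response element (ISRE). Type II interferon (IFN-γ) has a receptor of its own, and its signal is read at the gamma-activated sequence (GAS). The 9 genes stand at different places of the response. IRF7 and IRF1 are transcription factors, of which IRF7 amplifies type I interferon production and IRF1 is an early target of IFN-γ. ISG15 is a ubiquitin-like protein that is joined to other proteins, and USP18 removes it and also blocks the type I receptor. OAS1A makes oligoadenylates that switch on an RNA-cutting enzyme, IFIT3 belongs to a family that binds viral RNA, MX1 and MX2 are dynamin-like GTPases that block viruses, and RSAD2 (viperin) makes a nucleotide that stops viral polymerases.

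The promoters of the members differed in which of both motifs they held, and the stretches around the matches are given here because the transcripts also fell into unlike patterns across animals. A window from 250 bases before to 50 bases after the start site was held in the RefSeq table of the rat assembly GRCr8 for 6 of the 9 genes, and Isg15, Mx2 and Usp18 had no entry. The core of the ISRE, searched on both strands as GAAA and GAAA with 2 bases of any kind between them, was found in 4 of these 6 windows, those of Irf7, Ifit3, Oas1a and Rsad2, and in 3.77% of the 27457 windows of all genes. The GAS, searched as TTCNNNGAA on both strands, was found in the windows of Irf1 and Oas1a and in 8.68% of all windows. The Mx1 window held neither. Capitals below mark the ISRE core, or for Irf1 the GAS, and each stretch is written 5′ to 3′ on the strand of the gene.
Irf7 (chr1:205800073-205800102, minus strand): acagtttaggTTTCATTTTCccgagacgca
Ifit3 (chr1:241527257-241527316, plus strand): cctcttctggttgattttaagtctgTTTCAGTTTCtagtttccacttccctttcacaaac
Oas1a (chr12:41330418-41330447, plus strand): ctctcggGAAATGGAAACTGAAAatcttgt
Rsad2 (chr6:48788248-48788277, minus strand): ctggttcaacTTTCATTTTCagaaaacaga
Irf1 (chr10:38417768-38417826, plus strand): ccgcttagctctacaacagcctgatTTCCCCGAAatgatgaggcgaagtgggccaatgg

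Counted from the start site, the ISRE core lay at -69 to -60 in Irf7, at -44 to -35 in Ifit3 and at -147 to -138 in Rsad2, in each case on the strand opposite to the gene. Oas1a held 2 matches on its own strand that overlap by 4 bases, at -41 to -32 and at -35 to -26, which gives the longer run of capitals in its line. Its GAS lay farther out, at -199 to -191. The GAS of Irf1 lay at -142 to -134. The Irf7 stretch lay upstream of the start site used but inside the annotated span of the gene, and the Oas1a stretch reached over the first annotated base of its gene, whereas the other stretches lay upstream of theirs. A match is a run of letters and was not tested for binding.

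Each library held between 9304629 and 14125457 estimated counts, and the members had between 35.3 and 1778 counts per animal, so none was near the limit of detection. Levels are given as CPM, estimated counts scaled to a common library total by the TMM method. The defining kidney markers, from Umod to Aqp2, were present in every library. The libraries of animals 36 and 37 (i.v.), 38 (i.p.) and 39 (CoCM) stood apart from the other 20. Their Spp1, which codes for osteopontin and marks injured tubules, was at 370.1 to 669.5 CPM against 6596 to 13004 CPM in the others, and Havcr1, Lcn2, Vcam1 and Clu were also below the range of the other 20. Their summed macrophage markers (10 genes) did not exceed 252.8 CPM, against 463.6 to 1215 CPM in the other 20. Whether these 4 animals carried the Cy allele or had cysts was not tested. No control animal was among them, and the counts of negative differences among the members and the pathway lists are therefore also given without them.

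In untreated kidneys the members were expressed at unequal levels. Measured as TPM, a scale that divides by transcript length and so allows genes to be compared, Irf1 had the highest median at 69.5 TPM, followed by Irf7 at 58.9, Isg15 at 52.1 and Mx2 at 42.4 TPM. Mx1 followed at 18.5 TPM, Oas1a at 15.1, Usp18 at 14.9, Rsad2 at 9.95 and Ifit3 at 9.71 TPM. The ranges of neighbours in this order overlapped over the 6 Ctrl animals except between Mx2 (32.04 to 93.6 TPM) and Mx1 (11.2 to 27.01 TPM). Irf1 was above 86.6% and Ifit3 above 49.2% of the 17334 genes measured, including those that the filter removed, by their median in Ctrl.

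Irf7 varied widely among the untreated animals. It was at 49.7, 83.8 and 142.6 CPM (lowest, median and highest of 6) in Ctrl, at 35.4, 75.6 and 114.5 CPM in CoCM, at 51.6, 62.4 and 74.0 CPM after i.p. cells and at 42.3, 62.4 and 82.1 CPM after i.v. cells. The Ctrl range enclosed that of the i.p. group whole, and all treated animals but 2, CoCM 39 and i.v. animal 36, lay inside it. The highest Ctrl animal was number 23 and the lowest number 24. The mean was 86.9 ± 30.9 CPM (SD, n = 6) in Ctrl, 62.9 ± 7.74 in the i.p. group and 61.8 ± 14.4 in the i.v. group.

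Irf1 behaved otherwise. Its levels were 80.4, 100.2 and 113.4 CPM in Ctrl, 18.2, 91.5 and 104.1 CPM in CoCM, 23.5, 91.6 and 133.5 CPM after i.p. cells and 23.1, 85.2 and 105.3 CPM after i.v. cells. The lowest values came from animals 36 to 39, which had 18.2 to 25.4 CPM. The other 20 animals lay between 70.1 and 133.5 CPM, so there was no overlap between both sets. Animal 23, the highest control for Irf7, was among the lower controls for Irf1 with 86.03 CPM.

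Isg15 and Usp18, the modifier and its protease, had overlapping ranges in the 4 groups. Isg15 was at 11.8, 19.04 and 29.2 CPM in Ctrl, at 12.5, 18.3 and 30.95 CPM in CoCM, at 13.0, 14.9 and 20.4 CPM after i.p. cells and at 13.7, 15.3 and 19.7 CPM after i.v. cells. Usp18 was at 9.10, 16.2 and 27.3 CPM in Ctrl, at 8.08, 14.1 and 21.4 CPM in CoCM, at 9.71, 12.8 and 16.0 CPM after i.p. cells and at 9.31, 13.1 and 14.5 CPM after i.v. cells. For both genes Ctrl 23 was the highest control and Ctrl 24 the lowest.

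Oas1a and Ifit3 also had their highest and lowest control in Ctrl 23 and Ctrl 24. Oas1a was at 7.57, 13.7 and 24.5 CPM in Ctrl, at 8.86, 11.4 and 20.6 CPM in CoCM, at 9.49, 11.4 and 14.9 CPM after i.p. cells and at 7.90, 10.3 and 15.2 CPM after i.v. cells. Ifit3 was at 8.90, 14.6 and 22.5 CPM in Ctrl, at 5.55, 9.72 and 15.6 CPM in CoCM, at 4.27, 9.90 and 15.1 CPM after i.p. cells and at 7.71, 9.87 and 14.01 CPM after i.v. cells. Both genes had fractional counts in all 24 libraries, which means that some of their reads were divided with other genes or transcripts, and no single gene completed them to whole numbers. The split was made before deposit and was not tested, so their values are less certain than those of Isg15, Irf7, Irf1, Usp18 and Rsad2, whose counts were whole numbers in every animal.

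Mx1 and Mx2, related genes on chromosome 11, differed in their spread between animals. Mx1 was at 25.3, 41.6 and 54.7 CPM in Ctrl, at 9.80, 30.1 and 61.8 CPM in CoCM, at 13.8, 25.3 and 35.6 CPM after i.p. cells and at 14.7, 28.1 and 46.1 CPM after i.v. cells. Mx2 was at 63.9, 75.6 and 149.8 CPM in Ctrl, at 62.9, 75.7 and 108.6 CPM in CoCM, at 59.8, 67.4 and 83.7 CPM after i.p. cells and at 65.0, 72.4 and 84.3 CPM after i.v. cells. The medians of Mx2 differed little between groups, and its highest value, in Ctrl 23, stood far above the other 5 controls (63.9 to 82.3 CPM). The 2 genes shared reads: their counts carried fractions in 19 of the 24 animals, and in all 24 the sum of both was a whole number within 0.01.

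Rsad2 was at 19.7, 26.9 and 39.2 CPM in Ctrl, at 13.0, 20.2 and 22.4 CPM in CoCM, at 19.997, 22.4 and 29.4 CPM after i.p. cells and at 13.5, 18.6 and 34.9 CPM after i.v. cells. All 6 CoCM animals were below the Ctrl median, and 2 of them were below the lowest control. After i.v. cells 4 of 6 animals were below the lowest control, while animal 33 reached 34.9 CPM. No treated group was separated from Ctrl.

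**Figure D1:**
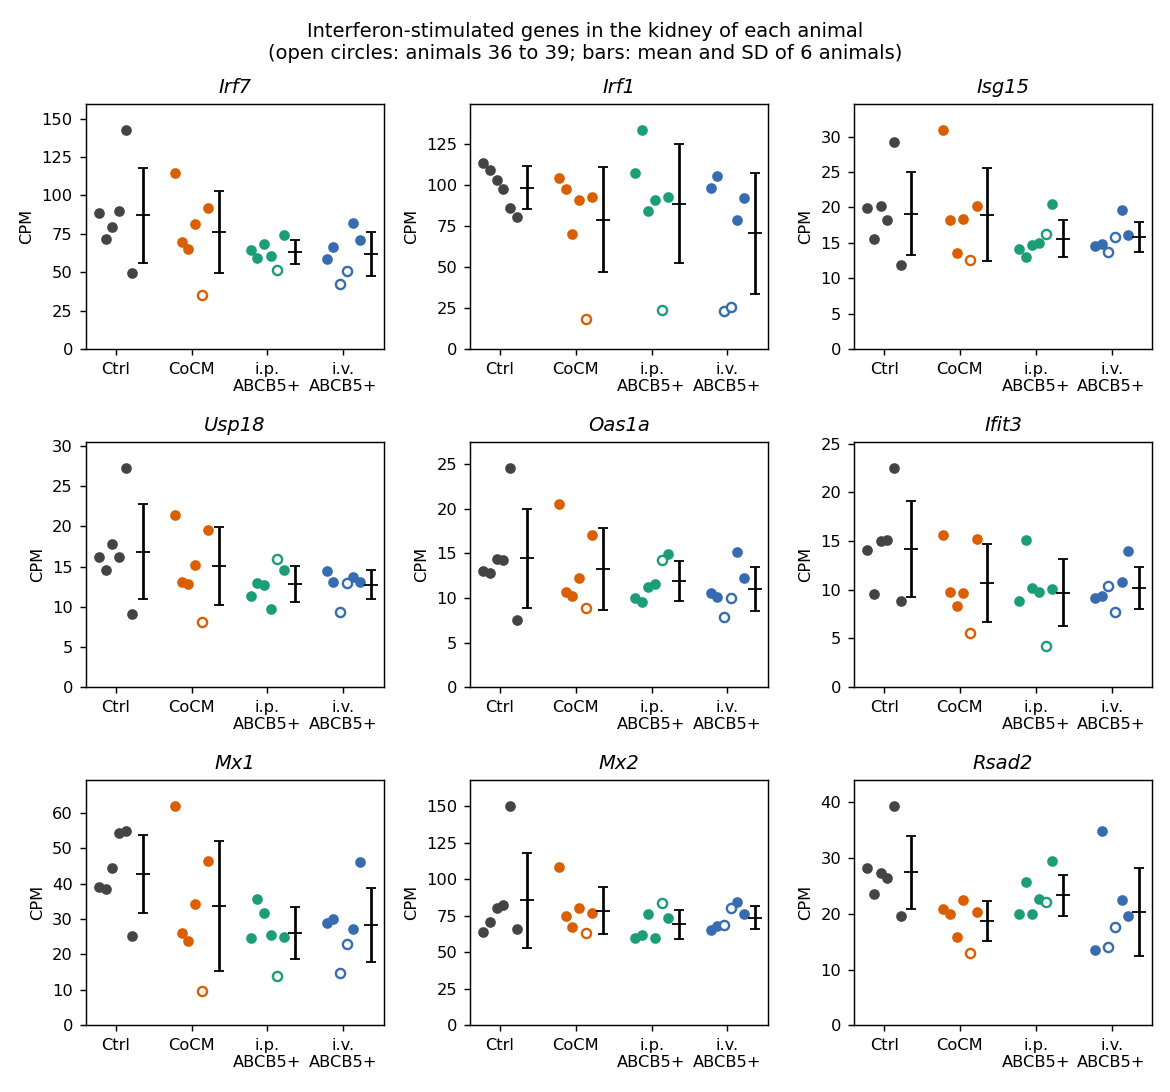
CPM (vertical axes, from 0) of the 9 genes in each of the 24 animals, grouped by treatment, with 1 point per animal in order of animal number, open circles for animals 36 to 39, and bars for the mean and SD of 6 animals. The groups overlap in all panels, 1 control stands highest in most panels, and the open circles fall far below the rest in the Irf1 panel (18.2 to 25.4 CPM) but among the rest in the Mx2 panel.

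The first question was whether the treatments changed the interferon-stimulated genes of the cystic kidney. In the comparison of CoCM with Ctrl, all 9 members had a negative log2 fold change, with a median of -0.19 against 0.01 over all genes tested, of which 48.6% were below 0. The difference was largest for Rsad2, at -0.55 ± 0.20 (log2 fold change ± standard error), followed by Ifit3 at -0.40 ± 0.27, Mx1 at -0.34 ± 0.32 and Irf1 at -0.32 ± 0.40. Without CoCM 39, Rsad2 was at -0.46, Ifit3 at -0.27, Mx1 at -0.14 and Irf1 at -0.11. Isg15 was nearly level at -0.01 ± 0.20. In edgeR's quasi-likelihood F-test, adjusted by the Benjamini-Hochberg method over all genes tested, 0 of 9 members passed a threshold of 0.05, where 0.00783% of all genes did. At an unadjusted p under 0.05 only Rsad2 was counted, 1 of 9 members, against 5.96% of all genes that were lower at this level, and its adjusted p was 0.353. No member lay wholly below Ctrl in CoCM, against 0.524% of all genes.

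The negative direction in CoCM depended in part on single animals. Without Ctrl 23, 4 of 9 members had a negative log2 fold change and the median was 0.01. The members that stayed negative were Rsad2, Irf1 (-0.35), Mx1 (-0.26) and Ifit3 (-0.23). Without CoCM 39, 8 of 9 were negative and the median was -0.07. Rsad2 was at -0.42 ± 0.21 without Ctrl 23, with an unadjusted p of 0.0515 in the edgeR test. It kept an unadjusted p under 0.05 in the other 11 fits that left out a single animal of both groups.

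In the comparison of i.p. cells with Ctrl, all 9 log2 fold changes were again negative, with a median of -0.31 against 49% of all genes below 0. Mx1 had the largest difference, at -0.71 ± 0.32, with all 6 treated animals below the Ctrl median and 3 below the lowest control. Ifit3 followed at -0.55 ± 0.27, Irf7 at -0.47 ± 0.23 and Usp18 at -0.39 ± 0.22, and in both Irf7 and Usp18 all 6 animals were below the Ctrl median. Irf1 was at -0.15 ± 0.40. By edgeR, 0 of 9 members passed the adjusted threshold, as did 0% of all genes, and Mx1 had an adjusted p of 0.978. At an unadjusted p under 0.05, 1 of 9 members was lower, against 0.509% of all genes, and 0 of 9 lay wholly below Ctrl, against 0.047% of all genes. When Mx1 and Mx2, which shared reads, were summed, the difference was -0.43 ± 0.18 (adjusted p = 0.978 by edgeR).

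The count of members at an unadjusted p under 0.05 turned on single animals. It was 6 of 9 without Ctrl 24, the control with the lowest levels, 3 without Ctrl 12, and 2 without Ctrl 1 or i.p. animal 30. It was 0 of 9 without Ctrl 18, Ctrl 22 or Ctrl 23, and without i.p. animal 29, 32, 38 or 41. Without Ctrl 23, the control with the highest levels, the median difference was -0.18.

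In the comparison of i.v. cells with Ctrl, the 9 log2 fold changes were negative with a median of -0.43, where 47.4% of all genes were below 0. Mx1 was at -0.59 ± 0.32, Irf7 at -0.49 ± 0.23, Irf1 at -0.48 ± 0.40 and Rsad2 at -0.43 ± 0.20. For Irf1, i.v. animals 36 and 37 were at 23.1 and 25.4 CPM. The rest of the i.v. group was at 78.5 to 105.3 CPM, against 80.4 to 113.4 CPM in Ctrl. For Irf7, Usp18 and Ifit3 all 6 i.v. animals were below the Ctrl median. By edgeR, 0 of 9 members passed the adjusted threshold, as did 0% of all genes, and both Irf7 and Rsad2 had an adjusted p of 0.673. At an unadjusted p under 0.05, these 2 of 9 members were lower, against 1.34% of all genes, and 0 of 9 lay wholly below Ctrl, against 0.0548%. The 3 comparisons share the same 6 controls, and the members vary together between animals, so neither the 9 genes nor the 3 comparisons count as separate evidence.

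Without animals 36 to 39, the median difference from Ctrl was -0.08 for CoCM, -0.37 for i.p. cells and -0.28 for i.v. cells, with 8, 8 and 9 of the 9 differences negative, and 0 of 9 members passed the adjusted threshold in each. The number of members lower at an unadjusted p under 0.05 was then 1, 3 and 0, beside 1249, 87 and 62 of the 12884 genes tested in that fit. With single animals left out of the i.v. comparison it was 5 of 9 without Ctrl 24, 3 without i.v. animal 42, 1 without Ctrl 18 or i.v. animal 33, and 0 without Ctrl 1, 22 or 23 or i.v. animal 28, 36 or 37. Without Ctrl 23, 8 of 9 differences were negative and the median was -0.30.

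**Figure D2:**
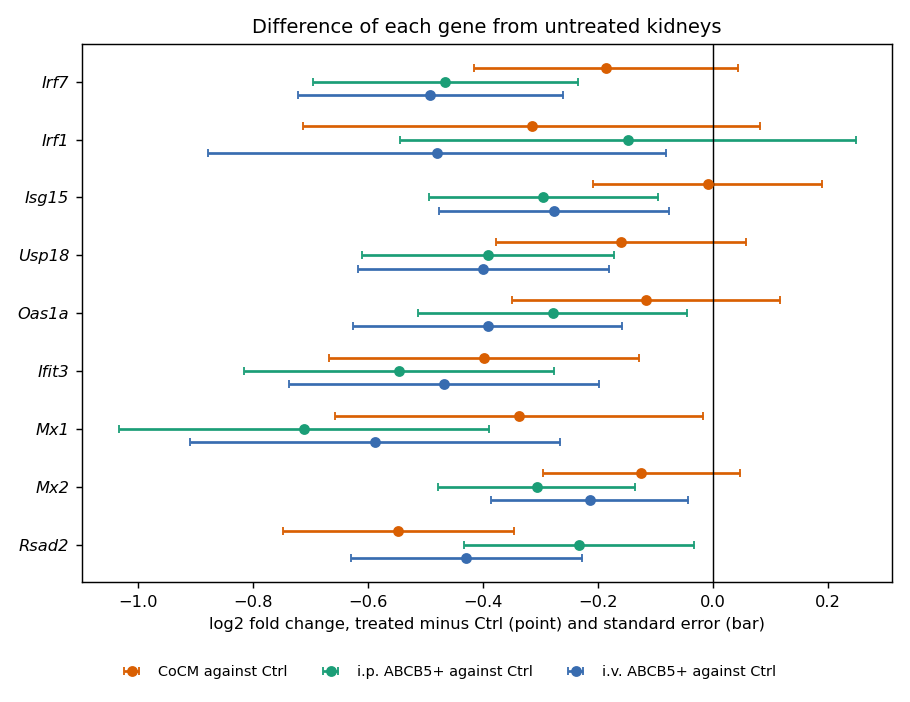
Log2 fold change (horizontal axis, treated minus Ctrl) of the 9 genes in the 3 treated groups, with points for the estimate and bars for the standard error. Every point lies below 0, from -0.01 for Isg15 in CoCM to -0.71 for Mx1 after i.p. cells, and no difference passed the adjusted threshold.

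The treatments were also compared with each other, which asks whether the route of the cells, or the medium against the cells, made a difference. Between i.p. and i.v. cells the members differed by -0.12 ± 0.32 (Mx1) to 0.33 ± 0.40 (Irf1) on the log2 scale. Between CoCM and i.p. cells they ranged from -0.31 ± 0.20 (Rsad2) to 0.37 ± 0.32 (Mx1), and between CoCM and i.v. cells from -0.12 ± 0.20 (Rsad2) to 0.31 ± 0.23 (Irf7). In each of the 3 comparisons 0 of 9 members passed the adjusted threshold, as did 0% of all genes, and 0 of 9 had an unadjusted p under 0.05 by edgeR, where 1.46%, 1.9% and 4.02% of all genes were lower at that level and 0.689%, 2.18% and 2.82% higher. The standard errors of these differences were 0.17 to 0.40, so the data do not show that the treatments acted alike. In the F-test over the 4 groups together 0 of 9 members passed the adjusted threshold or had an unadjusted p under 0.05, where 0% and 4.71% of all genes did. Rsad2 came closest by the unadjusted p of this F-test, 0.058. Its adjusted p of 0.817 was shared by all other members but Irf1 (0.874).

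The members varied to unequal degrees between animals of one group. The biological coefficient of variation of the members in the edgeR model, their scatter after counting error, ran from 0.212 for Mx2 to 0.473 for Irf1 with a median of 0.280, against a median of 0.206 over all genes. Mx2 was above 51.8% and Irf1 above 87.5% of the genes tested in this measure. Over the 20 animals other than 36 to 39, Irf1 had the narrowest CPM range of the members, with the highest value 1.90 times the lowest. The mean of the 9 genes' centred log2 CPM was 0.26 ± 0.39 (SD, n = 6) in Ctrl, -0.02 ± 0.52 in CoCM, -0.10 ± 0.20 after i.p. cells and -0.15 ± 0.30 after i.v. cells. The highest animal was Ctrl 23 at 0.87, followed by CoCM 26 at 0.61, and the lowest were CoCM 39 at -0.90 and i.v. animal 36 at -0.63.

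A few animals were high or low in nearly every member at once. Ctrl 23 had the highest level of its group in 8 of 9 genes and the highest of all 24 animals in 6, while its Irf1 (86.03 CPM) was second lowest of the 6 controls. CoCM 26 had the highest level of its group in 8 genes, all but Rsad2, and the highest of the 24 in Isg15 and Mx1. Ctrl 24 was the lowest control in 8 genes, and CoCM 39 was the lowest of its group in all 9 and the lowest of the 24 in 5. The cell type markers of Ctrl 23 did not stand high with these genes. Its summed macrophage markers (10 of 10 genes detected) were at 482.5 CPM, the lowest of the controls (median 871.8 CPM, highest 1215 CPM), and its lymphocyte and NK cell markers at 105.2 CPM were also the lowest of the controls (median 179.7 CPM). CoCM 26 had 938.6 CPM of macrophage markers, where its group ran from 90.4 to 1099.5 CPM, and had the highest injured tubule markers of all 24 animals at 15789 CPM.

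**Figure D3:**
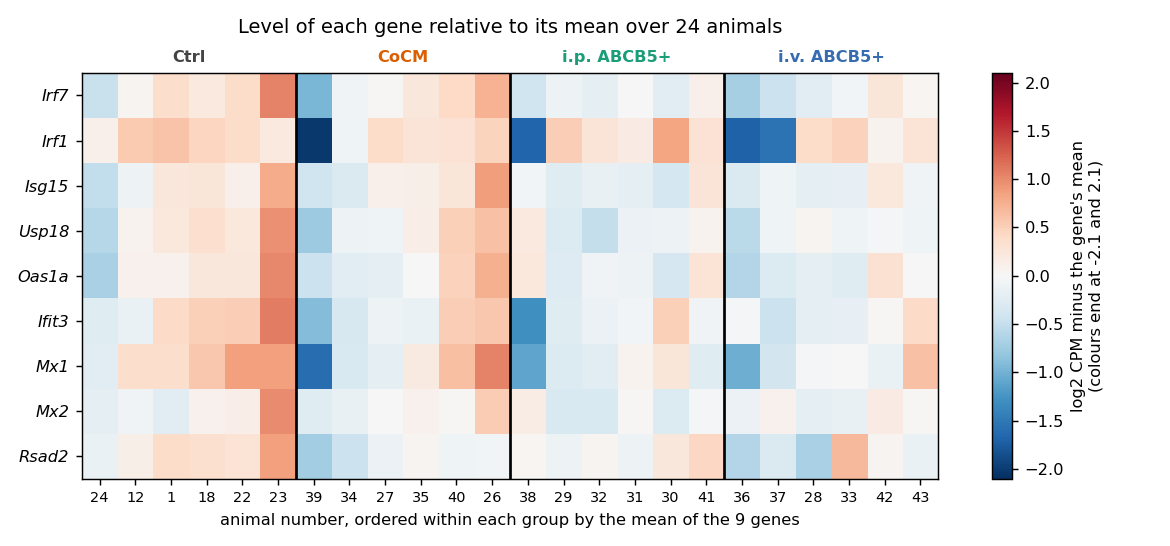
Log2 CPM of the 9 genes (rows) in the 24 animals (columns) minus each gene's mean over the 24, red for higher and blue for lower, with animals ordered within each group by the mean of the 9 genes. Ctrl 23 and CoCM 26 are red in nearly all rows and CoCM 39 is blue in all, while the Irf1 row is dark blue in animals 36 to 39 and much paler elsewhere.

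Most members followed each other from animal to animal, and Irf1 and Rsad2 followed the others least. Over the 20 animals other than 36 to 39, the Pearson r of log2 CPM was 0.94 between Irf7 and Oas1a, 0.94 between Isg15 and Oas1a, 0.92 between Irf7 and Usp18, and 0.86 between Mx1 and Ifit3. Among the 7 members without Irf1 and Rsad2, a division made after the values were seen, the 21 pairs ran from 0.66 to 0.94 with a median of 0.81. With Ctrl 23 and CoCM 26 also left out (18 animals) they ran from 0.33 to 0.89 with a median of 0.63. After the group means were removed the median over the 20 animals was 0.79. The points of these correlations share libraries and library scaling.

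Rsad2 was correlated with the other 8 genes at 0.30 to 0.51 (median 0.42, 20 animals), and Irf1 at -0.23 to 0.30 (median 0.07). Over all 24 animals, with animals 36 to 39 included, the median for Irf1 was 0.46. Of the genes with a promoter window, Irf1 was the one that held the GAS without the ISRE core, while Irf7, Oas1a and Ifit3, which followed each other at 0.73 to 0.94, and Rsad2, which did so less, each held the ISRE core. Mx1, whose window held neither motif, followed Irf7, Oas1a and Ifit3 at 0.70 to 0.86. Whether the motifs bear on these patterns was not tested.

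**Figure D4:**
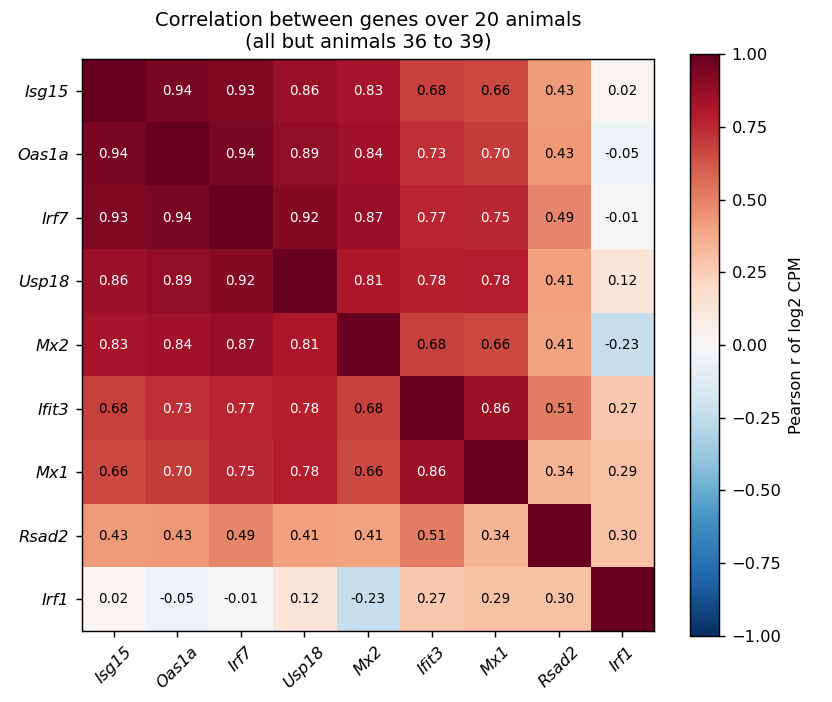
Pearson r of log2 CPM between each pair of the 9 genes over the 20 animals other than 36 to 39, written in each cell and coloured from blue (-1) to red (1). The cells among Isg15, Oas1a, Irf7, Usp18, Mx2, Ifit3 and Mx1 are all red (0.66 to 0.94), those of Rsad2 are paler, and those of Irf1 are the palest (-0.23 to 0.30).

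The 4 animals with low Spp1 split the members. Irf1 was lower in all 4 than in any other animal, and so was Mx1, at 9.80 to 22.96 CPM against 23.9 to 61.8 CPM in the other 20. Measured as CPM, Ifit3 was below the range of the 20 in 3 of the 4 animals, Irf7 in 2, and Usp18 and Rsad2 in 1 each. Isg15, Mx2 and Oas1a were inside the CPM range of the 20 in all 4. The split depended on the scale. In TPM, Irf1, Mx1 and Irf7 were below the range of the 20 in 4 animals, and Ifit3 and Oas1a in 3. Isg15, Usp18 and Rsad2 were so in 2 animals and Mx2 in 1. The share of Mx1 in the summed counts of Mx1 and Mx2 was 13.5% to 22.3% in the 4 animals and 24.4% to 39.7% in the 20. Irf1 and Spp1 were correlated at 0.97 over the 24 animals and at 0.45 over the 20, so the first value rests on the 4 animals. In these animals macrophage, lymphocyte and dendritic cell markers were also low and kidney tissue markers high, and in bulk tissue fewer cells of a type and less RNA per cell cannot be told apart. The part of these markers in the levels of Irf1 and Mx1 was not tested.

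**Figure D5:**
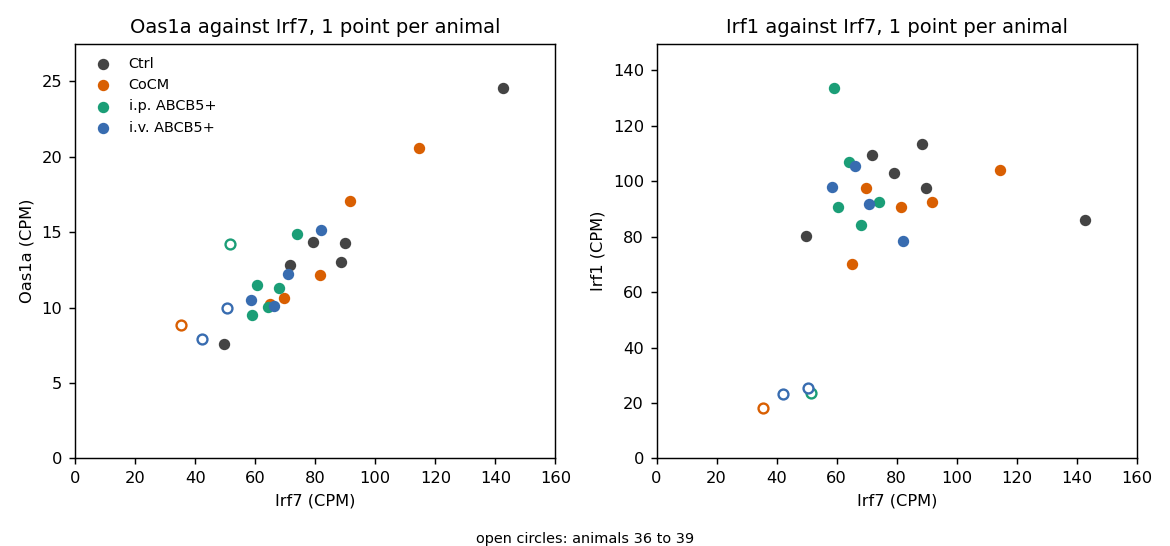
Oas1a (left) and Irf1 (right) against Irf7, all in CPM, with 1 point per animal coloured by group and open circles for animals 36 to 39. Oas1a is higher where Irf7 is higher, along 1 band that Ctrl 23 (142.6 CPM Irf7) and CoCM 26 head, whereas Irf1 lies in 2 separate levels, 18.2 to 25.4 CPM in the open circles and 70.1 CPM or more in the other 20.

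The genes most like the members were searched among all genes tested by the Pearson r of log2 CPM with the mean of the 9 over 24 animals. The 10 closest were Oasl (r = 0.96), Lgals9 (0.93), Dhx58 (0.92), Ifi44 (0.91), Uba7 (0.91), Rtp4 (0.90), Eif2ak2 (0.90), RT1-T24-3 (0.89), Apol9a (0.89) and Cmpk2 (0.88). Oasl is a relative of the OAS enzymes, Dhx58 codes for a regulator of the RIG-I-like RNA sensors, Uba7 for the enzyme that activates ISG15, Eif2ak2 for the RNA-activated kinase PKR, and Cmpk2 lies beside Rsad2 in the genome of many mammals. Over the 20 animals the r of these genes was 0.82 to 0.93. Irf1 had other neighbours: Cd44, a hyaluronan receptor, and Ltb, a lymphotoxin, at 0.98 each over 24 animals, and Ngfr and Hhex at 0.84 each over the 20. Mx1 was closest to the class I histocompatibility genes RT1-S3 (0.93) and RT1-T24-3 (0.89), and Rsad2 to Cmpk2 (0.79) and Tbc1d2 (0.78), all over 24 animals.

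The other genes of the pathway were taken as 8 lists in the order of the signal. Of the interferon genes themselves, 6 were found and 0 passed the filter. Ifnb1, Ifna2, Ifna4, Ifna5 and Ifnk had at most 2 counts in any animal, and Ifng at most 6, with a count in 17 of the 24 animals, so a difference in these ligands was not detectable at this depth. Of 105 pathway genes found, 97 were tested, and 0 passed the adjusted threshold against Ctrl in any treated group. After CoCM 78 of the 97 had a negative log2 fold change (median -0.18), after i.p. cells 89 (median -0.22) and after i.v. cells 88 (median -0.28). At an unadjusted p under 0.05 the numbers lower and higher were 10 and 1 after CoCM, 3 and 0 after i.p. cells and 5 and 0 after i.v. cells, beside 5.96% lower and 5.96% higher, 0.509% and 1.26%, and 1.34% and 4.44% of all genes. Without animals 36 to 39 the negative differences were 64, 76 and 67 of the 97, and the medians moved to -0.08, -0.09 and -0.07, with 0 past the adjusted threshold in each. At an unadjusted p under 0.05 by edgeR the numbers lower and higher were then 10 and 1, 3 and 0, and 0 and 1. Of the 12884 genes tested in that fit, 1249 were lower and 930 higher at this level after CoCM. The numbers were 87 and 92 after i.p. cells, and 62 and 97 after i.v. cells.

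Of the receptors, 5 of 5 tested had negative differences in each treated group, with medians of -0.18 after CoCM, -0.13 after i.p. cells and -0.24 after i.v. cells. Without animals 36 to 39 the negative differences were 4, 4 and 2 of 5, and the medians -0.04, -0.06 and 0.00084. Ifnar1, a chain of the type I receptor, was at -0.32 ± 0.14 after CoCM (adjusted p = 0.396). Of the 11 transducers, 10, 11 and 10 were negative after CoCM, i.p. cells and i.v. cells, and 10, 9 and 6 without animals 36 to 39. Among them, Jak1, the kinase shared by both interferon types, was at -0.33 ± 0.11 after CoCM (adjusted p = 0.323), with 157.2 to 211.5 CPM against 196.9 to 236.3 CPM in Ctrl. Irf3, which starts type I interferon production, was the exception in direction at 0.33 ± 0.12 after CoCM (adjusted p = 0.353), with 215.8 to 280.0 CPM against 148.0 to 244.1 CPM. Neither gene was without overlap between the groups.

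Of the 12 RNA and DNA sensors and adaptors tested, 9 were negative after CoCM, 10 after i.p. cells and 11 after i.v. cells, and 9, 9 and 8 without animals 36 to 39. Ifih1, which codes for the RNA sensor MDA5, was at -0.46 ± 0.16 after CoCM (adjusted p = 0.319) and at -0.38 ± 0.16 after i.v. cells (adjusted p = 0.673), the latter at -0.20 without animals 36 to 39. All 6 CoCM animals, at 16.5 to 21.5 CPM, lay below the lowest control at 23.03 CPM, as was the case for 0.524% of all genes, and the highest control was again animal 23 at 32.6 CPM. Tlr8, a sensor of single-stranded RNA found mainly in myeloid cells, was at -1.32 ± 0.57 after CoCM (adjusted p = 0.391), at 0 to 4.52 CPM against 3.995 to 9.87 CPM in Ctrl. The 10 macrophage markers were below Ctrl in all 10 genes in each treated group (medians -0.45, -0.46 and -0.51, 0 of 10 past the adjusted threshold). Without animals 36 to 39 they were below Ctrl in 9, 10 and 9 genes (medians -0.22, -0.28 and -0.11), and their part in the values of the pathway genes was not tested.

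Of the 35 other antiviral effectors tested, 30, 33 and 33 were negative after CoCM, i.p. cells and i.v. cells, with medians of -0.25, -0.31 and -0.34. Without animals 36 to 39 the counts were 25, 31 and 29, and the medians -0.11, -0.20 and -0.10. Zc3hav1, a protein that targets viral RNA for decay, was at -0.62 ± 0.23 after CoCM (adjusted p = 0.353), and Trim21, an intracellular antibody receptor, at -0.67 ± 0.27 (adjusted p = 0.374). After i.p. cells the oligoadenylate synthetase genes Oas2 and Oasl2 were at -0.81 ± 0.35 and -0.55 ± 0.25 (adjusted p = 0.978 for both). After i.v. cells Cmpk2 was at -0.43 ± 0.16 and Oas1k at -0.77 ± 0.31 (adjusted p = 0.673 for both). Animal 23 was the highest control for Zc3hav1, Trim21, Oasl2, Oas2, Cmpk2 and Oas1k.

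Of 3 ISG15 conjugation genes, 2, 3 and 3 were negative after CoCM, i.p. cells and i.v. cells, and 1, 3 and 3 without animals 36 to 39. Trim25, a ligase that joins ISG15 to proteins, was at -0.74 ± 0.33 after CoCM (adjusted p = 0.396). Of 21 IFN-γ response genes, 14, 18 and 18 were negative after CoCM, i.p. cells and i.v. cells, with medians of -0.10, -0.21 and -0.33. Without animals 36 to 39 the counts were 9, 12 and 14, and the medians 0.05, -0.03 and -0.05, with that of CoCM above 0. Cd274, which codes for PD-L1, was at -0.86 ± 0.39 after CoCM (adjusted p = 0.404) and -0.85 ± 0.39 after i.v. cells (adjusted p = 0.673), the latter at -0.56 without animals 36 to 39, at levels of 0.279 to 3.15 CPM over all groups. Of 11 negative regulators, 8, 10 and 8 were negative, and 6, 9 and 5 without animals 36 to 39. Ptpn11, the phosphatase SHP2, was at -0.21 ± 0.07 after CoCM (adjusted p = 0.327). The adjusted p values of all pathway genes are from the same edgeR test.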

How the data were processed

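Kidney RNA of 24 rats was sequenced, and for each animal the authors deposited estimated counts per Entrez gene, which were not normalized, and TPM values, which the authors had scaled to transcript length and library total (sums of 964191 to 976409). The submitters' processing notes name Trim Galore 0.6.4, kallisto 0.4.6 and the build rn6. The methods name human hg19 gene models and DESeq2. How transcripts were summed to genes, and whether strand was used, is not given in the sources used here. Symbols came from the RefSeq table of GRCr8.

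Groups were taken from the labels. Counts were rounded, genes were filtered with filterByExpr by group, libraries were scaled by TMM, and all 24 samples were fitted in edgeR 4.0.16 (R 4.3.3) with quasi-likelihood F-tests and Benjamini-Hochberg adjustment over 12778 genes, at a threshold of 0.05. The standard error is the fold change divided by the square root of F. DESeq2 1.42.0, limma 3.58.1 on log2(TPM + 1) and log2(TPM + 0.1), voom with quality weights, median-ratio size factors, other filters, fits of the compared groups alone and leaving out each animal were alternatives. Leaving out animals 36 to 39 and summing Mx1 and Mx2 were chosen after seeing the data. The members and lists were chosen with earlier results of these data known. All members were named. In addition, the 2 genes per pathway list with the smallest unadjusted p under 0.05 in each comparison with Ctrl, the 10 genes most like the mean of the members, and the 2 most like each member were eligible. Log2 CPM used a prior count of 2.

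Totals of 9304629 to 14125457 per sample put a floor of 3 counts at 0.322 CPM in the smallest library, for counting error only. No 2 libraries of a group agreed within sampling noise (smallest chi-square per degree of freedom 10.6). The scripts were tested on simulated data. The study's other groups were not analysed here. Whether the animals of a group came from separate litters or cages is not given in the sources used here.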

Additional observations from a re-analysis of the deposited data

Results flagged for a closer look

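The level of each of the 9 genes was checked for a single animal far from the rest in each of the 4 groups of 6, by the gap from the extreme animal to its nearest neighbour relative to the whole range of the 6. Of these 36 sets 2 passed Dixon's 95% critical value, where about 1.8 are expected by chance. Mx2 was at 149.8 CPM in Ctrl animal 23, against 63.9 to 82.3 CPM in the other 5 controls, a gap of 0.786 of the range. Usp18 was at 9.31 CPM in i.v. animal 36, against 13.0 to 14.5 CPM in the other 5 animals of its group, a gap of 0.719 of the range. Animal 36 is 1 of the 4 animals with low Spp1.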

How the results depend on the processing

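In all alternatives together 1134 tests of a member were made, and 0 passed an adjusted p of 0.05 (lowest adjusted p 0.200), also by DESeq2 and limma. Against Ctrl, each member kept its direction in every alternative except as follows. In CoCM, Isg15 turned to 0.057 with voom quality weights and to 0.078 without animals 36 to 39. After i.p. cells, Irf1 turned to 0.056 without animals 36 to 39. Leaving out each animal in turn, the log2 fold change in CoCM ran from -0.20 to 0.15 for Isg15, from -0.34 to 0.0079 for Irf7, from -0.24 to 0.10 for Mx2, from -0.29 to 0.092 for Oas1a and from -0.30 to 0.022 for Usp18, and each was above 0 without Ctrl 23. It ran from -0.31 to 0.047 for Irf1 after i.p. cells (above 0 without animal 38) and from -0.30 to 0.0059 for Mx2 after i.v. cells (above 0 without Ctrl 23). Between treatments, Mx1 ran from -0.26 to 0.070 for i.p. against i.v. cells, and Rsad2 from -0.21 to 0.11 for CoCM against i.v. cells. The 21 differences between treatments not given singly changed sign in 16 of 189 tests with another setting and in 20 of 252 that left out 1 animal, with 0 past the adjusted threshold. The cause of these changes was not tested.

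The difference from Ctrl in the mean of the 9 genes was -0.28 for CoCM, -0.36 for i.p. and -0.42 for i.v. cells, and -0.10, -0.30 and -0.24 without animals 36 to 39. Leaving out single animals it ran from -0.41 to -0.10, from -0.48 to -0.24 and from -0.54 to -0.30. Each of these values differed from that of the fit reported by less than the pooled SD between animals, 0.37. That SD describes single animals and is wider than the error of a difference of group means, so it does not show that the values are stable. The number of members lower at an unadjusted p under 0.05 after i.p. cells, 1 in the fit reported, was 3 by DESeq2, 2 in a fit of both groups alone, 4 with voom quality weights and 0 with limma on log2(TPM + 0.1). Of all 12778 genes, 65 were lower at this level in the fit reported, 128 by DESeq2, 625 with voom and 56 with that limma fit. In the fit of both groups alone, 150 of 12569 genes were. After i.v. cells, the number of members, 2 in the fit reported, was 1 with limma on either TPM scale. Of all 12778 genes, 171 were then lower in the fit reported, 239 with limma on log2(TPM + 1) and 221 on log2(TPM + 0.1). Over all genes, CoCM against Ctrl gave 1 call in the fit reported, 81 by DESeq2, 183 with voom quality weights and 0 with limma on either TPM scale. DESeq2 gave 1 call over all genes in i.v. cells against Ctrl, in i.p. against i.v. cells and in CoCM against i.p. cells, where edgeR gave 0. On log2(TPM + 0.1) the median of all genes shifted to -0.11 in CoCM against Ctrl.

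No paired analysis was possible because no animal number occurs in 2 groups. With 6 animals a group and scatter between animals of 0.212 to 0.473, the spread between animals and not counting depth limits the precision of these genes. Of the pathway genes, the interferon ligands, Ido1 (at most 4 counts) and Oas1f (at most 12.1 counts) were too low to be tested.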
